A study of Mus musculus with 10 samples.

Results

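The transcripts of 7 enzymes that make citrulline and arginine were examined in the jejunum of newborn mice. The genes were Aldh18a1, Oat, Nags, Cps1, Otc, Ass1 and Asl. They were chosen by symbol from a list of the pathway, and all 7 were among the 24062 gene symbols of the count tables. Jejunum of C57BL/6 mice at postnatal day 5 was compared between 2 groups of 5 libraries. WT mice were wild type. KSR23 mice carried an interleukin-23 (IL-23) cassette in the ROSA26 locus, which was switched on by a cre recombinase under the keratin 14 promoter, a promoter of keratinocytes and other stratified epithelia. Values with ± are the mean and SD over the 5 libraries of a group (n = 5). The study calls the libraries biological replicates, and the labels do not say whether each came from a different animal or from pooled animals, so the p-values measure only the spread between these libraries.

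Enterocytes of the suckling small intestine are known to make citrulline and arginine for the whole body, since milk holds little arginine. In the mitochondrion, the enzyme of Aldh18a1 turns glutamate, and proline oxidation turns proline, into the intermediate pyrroline-5-carboxylate. The aminotransferase of Oat converts this intermediate to ornithine. Cps1 makes carbamoyl phosphate, with the N-acetylglutamate made by Nags as its obligate activator, and Otc joins carbamoyl phosphate and ornithine to citrulline. In the cytosol, Ass1 and Asl convert citrulline to arginine.

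The libraries held 25.5 to 60.9 M counts in genes (M, 1e6 counts). At genes above 5 CPM (counts per M, scaled with trimmed mean of M-values factors), replicates 4 and 5 of both groups were the highest or the lowest library of their group at 8.54% to 18.4% of genes, where 40% is the share for exchangeable libraries, and replicates 1 to 3 at 45.7% to 75.6%. Values are therefore also given for replicates 1 to 3 alone. Transcripts of 4 Y-linked genes summed to 492 to 6347 counts in WT and 1 to 9035 in KSR23. In KSR23, 3 of 5 libraries had at most 9 such counts, so the Y-linked share moved with the group. Counts of Xist, which is made in female cells, were 2 to 919 in WT and 14 to 1685 in KSR23. Neither kind was below 167 counts in WT replicates 3 (492 Y-linked and 919 Xist counts) and 5 (4471 and 167) and in KSR23 replicate 4 (4330 and 691), and in each other library 1 of the kinds had at most 24 counts. Whether a library held RNA of more than 1 animal was not tested. Il12b, which encodes a subunit of IL-23, had 0 to 5 counts in WT and 9 to 40 in KSR23 (log2 fold change 2.32, SE 0.66, edgeR likelihood ratio adjusted p = 0.00364). Il23a, which encodes the other subunit, had 1 to 14 and 8 to 34 counts (adjusted p = 0.27). The 10 markers of enterocytes were detected in every library, with summed levels of 94854 to 201885 CPM in WT and 61226 to 110000 CPM in KSR23. Most of the mean sum was Apoa4, with means of 81611 CPM in WT and 49792 CPM in KSR23 (not called). By the likelihood ratio test Krt20 and Cdh1 were higher and Fabp1 and Fabp2 lower in KSR23, so the less abundant Krt20 and Cdh1 went against the direction of the sum, and 6 markers did not pass. The quasi-likelihood test called Krt20 and Fabp2, and from replicates 1 to 3 Krt20 alone was called.

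To ask whether the pathway was altered in KSR23 jejunum, the 7 genes were read from a fit across all 17632 genes that reached 5 counts in any library. Oat was 2.02-fold lower in KSR23, and its CPM did not overlap between the groups. Cps1, Nags, Aldh18a1, Otc and Asl did not pass the test. Ass1 had too few counts to be tested. Thus 1 of the 6 tested members was called, where 18.5% of all tested genes were called in either direction, 8.76% as lower and 9.73% as higher in KSR23. The share of all tested genes without overlap between the groups was 14.4%, and 6.99% with KSR23 lower. The quasi-likelihood F test also called Oat and no other member (15.4% of all genes). In replicates 1 to 3 alone 0 of the 6 members were called by either edgeR test, and 0 had an unadjusted p under 0.05, where the likelihood ratio test called 3.36% and the quasi-likelihood test 0.812% of all genes. The median log2 fold change of the 6 members was -0.36, against 0.03 over all tested genes. In RNA of the whole jejunum, fewer cells of a type and less RNA per cell cannot be told apart.

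**Figure D1:**
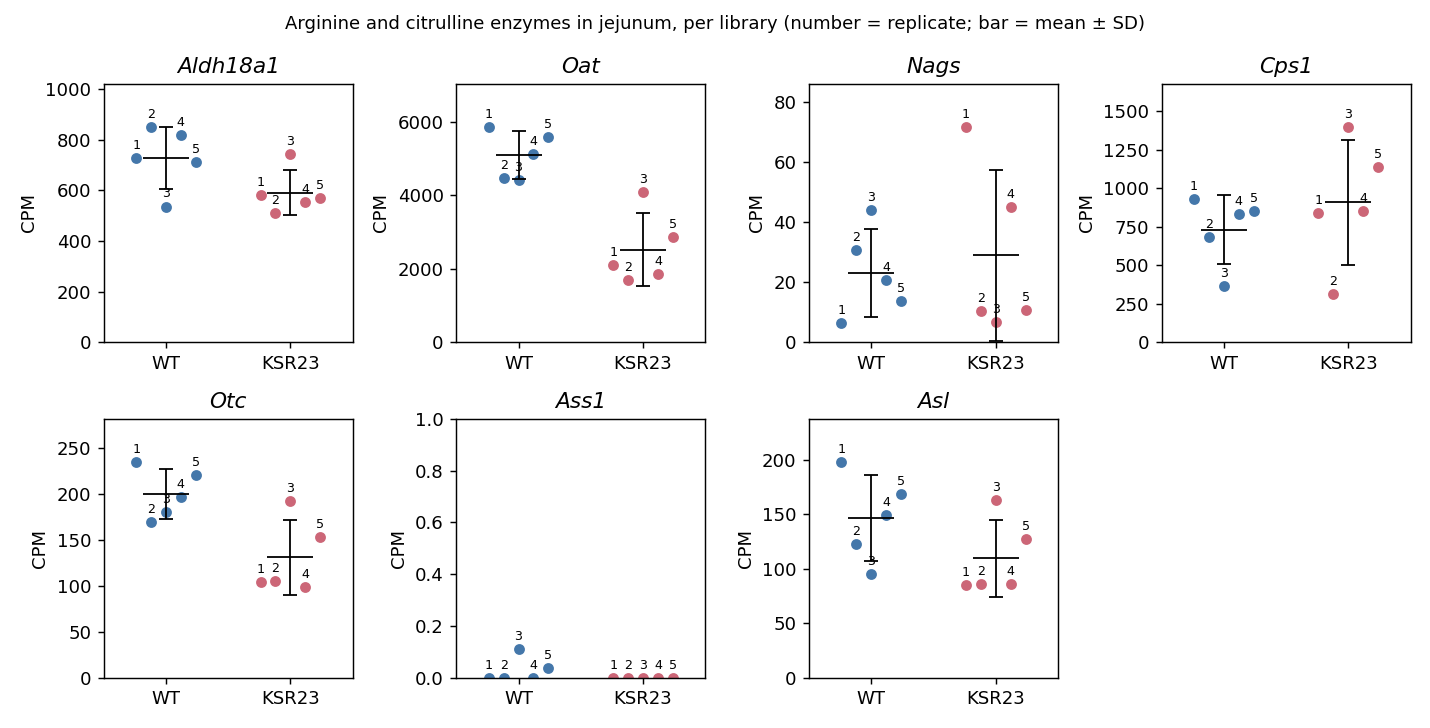
Level of each enzyme in CPM (y axes, linear, from 0) in the 5 WT and 5 KSR23 libraries, with points numbered by replicate and bars for the mean and SD (no bar for Ass1, whose counts were 0 to 3). The KSR23 points lie below the WT points for Oat and overlap them for the other tested genes, and KSR23 replicate 3 is the highest KSR23 library in 5 of the 6 tested genes.

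Oat (chromosome 7, 132557478 to 132576398, build mm10), the most abundant enzyme of the list, was the citrulline enzyme that was called. Its level was 5865, 4480, 4407, 5120 and 5588 CPM in WT replicates 1 to 5. In KSR23 replicates 1 to 5 it was 2092, 1692, 4098, 1857 and 2854 CPM. Each KSR23 library lay below each WT library, although KSR23 replicate 3 came close to the lowest WT library. The mean fell from 5092 ± 650 to 2518 ± 989 CPM, which is -1.02 on the log2 scale (SE 0.29, edgeR likelihood ratio adjusted p = 0.00546, quasi-likelihood adjusted p = 0.0268). Oat was not called from replicates 1 to 3 (-0.87, likelihood ratio adjusted p = 0.495), where the groups still did not overlap. It was not called either when the Y-linked share entered the fit (-1.11, adjusted p = 0.0651). The summed enterocyte markers given above, mostly Apoa4, overlapped between the groups, with 4 KSR23 libraries below each WT library, and their part in the difference of Oat was not tested.

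The start of Oat is shown because it is the called citrulline enzyme for which RefSeq gives a promoter window. The window (GRCm38.p6, chr7:132576349-132576648, minus strand) runs from 250 bases before to 50 bases after the annotated start, and 5 of the 7 members had such a window. Capitals mark 4 motifs that were searched on either strand. They were CCAAT (bound by NF-Y), the box GGGCGG (bound by Sp1 factors), the TATA box TATAAA, and the core TTCNNNGAA (bound by STAT factors, which carry the signal of IL-22).
Oat promoter: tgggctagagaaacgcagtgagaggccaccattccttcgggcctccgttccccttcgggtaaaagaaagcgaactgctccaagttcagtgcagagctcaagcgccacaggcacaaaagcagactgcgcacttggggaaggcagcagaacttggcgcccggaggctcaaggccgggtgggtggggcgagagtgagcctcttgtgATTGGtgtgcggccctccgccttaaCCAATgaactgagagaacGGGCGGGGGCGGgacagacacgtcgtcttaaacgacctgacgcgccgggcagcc
It held 2 matches to CCAAT, of which the upstream match reads on the opposite strand, and 2 adjoining matches to GGGCGG at the start. It held 0 matches to the TATA box and 0 to the STAT core. Over the 32851 RefSeq promoters of mouse genes, 37.4% held the CCAAT box, 35.7% the Sp1 box, 13.6% the TATA box and 8.3% the STAT core. Among the other windows, that of Aldh18a1 held 2 matches to the STAT core, and those of Otc, Nags and Ass1 held 0.

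Otc (chromosome X, 10252305 to 10321024), the enzyme next to Oat in the route to citrulline, was 235, 169, 181, 197 and 221 CPM in WT replicates 1 to 5 and 105, 106, 192, 99.3 and 153 CPM in KSR23 replicates 1 to 5. In KSR23, 4 libraries lay below each WT library, and replicate 3 lay within the WT range. The log2 fold change of Otc was -0.61 (SE 0.27, unadjusted p = 0.0243, edgeR likelihood ratio adjusted p = 0.101), and it was not called. It was called without KSR23 replicate 3 (-0.79, adjusted p = 0.013). Otc is X-linked, and with the Y-linked share in the fit its value was -0.74 (adjusted p = 0.239). Replicates 1 to 3 gave -0.50 (adjusted p = 0.765).

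Cps1 (chromosome 1, 67123026 to 67231259), which commits ammonia to citrulline, went the other way in its mean. It was 928, 685, 365, 834 and 850 CPM in WT replicates 1 to 5 and 842, 312, 1400, 853 and 1136 CPM in KSR23 replicates 1 to 5. WT replicate 3 and KSR23 replicate 2 stood well below the rest of their groups, and the groups overlapped over most of their range. The log2 fold change was 0.31 (SE 0.38, 95% interval -0.44 to 1.06, adjusted p = 0.639). The interval leaves room for a fall as well as for a rise.

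Nags (chromosome 11, 102145513 to 102149477), whose product activates the Cps1 enzyme, was the most uneven member. It was 6.28, 30.7, 44.0, 20.9 and 13.9 CPM in WT replicates 1 to 5 and 71.9, 10.4, 6.80, 45.0 and 10.7 CPM in KSR23 replicates 1 to 5. The spread within either group exceeded the difference between their means (log2 fold change 0.32, SE 0.66, 95% interval -0.98 to 1.62, adjusted p = 0.798). Without KSR23 replicate 1 the direction turned (-0.28). An antisense gene, Gm11586, overlaps 443 bases of its exons, and 12.5% of its 75-base stretches (the length of a read) also occur in that gene, and since the strand setting of the count is not given, reads of both genes cannot be told apart there.

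Aldh18a1 (chromosome 19, 40550257 to 40588463), which opens the route from glutamate, was 537 to 852 CPM in WT and 510 to 744 CPM in KSR23, and the groups overlapped. The change was -0.30 on the log2 scale (SE 0.24, 95% interval -0.77 to 0.17, adjusted p = 0.427).

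Of the 2 enzymes that turn citrulline into arginine, Ass1 could not be read from these counts. Ass1 (chromosome 2, 31470207 to 31520672) was given 0, 0, 3, 0 and 1 counts over the WT libraries (replicates 1 to 5) and 0 counts in each KSR23 library, at or under the floor of 3 counts. Its processed pseudogene Gm5424 (chromosome 10, 62071123 to 62072362) had 0 counts in all 10 libraries. Of the 1162 stretches of 75 bases in the Ass1 coding sequence, 65.1% occurred without a mismatch in Gm5424, 96.1% with at most 1 mismatch and 100% with at most 2. Over its summed exons, which hold the untranslated ends too, 32.6% of the stretches occurred in another gene, Gm5424. Reads with more than 1 alignment, 8.62 to 17.1 M per library, entered no gene. The other stretches of its summed exons occurred in no other gene. Whether Ass1 was silent cannot be told from these counts, and how its reads were placed was not tested.

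Asl (chromosome 5, 130011258 to 130029247), which releases arginine from argininosuccinate, was counted without such a copy, with 0% of its stretches found elsewhere. It was 198, 123, 95.2, 149 and 168 CPM in WT replicates 1 to 5 and 84.9, 85.6, 163, 85.9 and 128 CPM in KSR23 replicates 1 to 5. In KSR23, 3 libraries lay below each WT library and 2 within the WT range. The log2 fold change was -0.42 (SE 0.30, 95% interval -1.02 to 0.17, adjusted p = 0.368).

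Markers of other cell types were read from the same libraries. The 8 macrophage markers summed to 500 to 617 CPM in WT and 405 to 536 CPM in KSR23, with Cd163, Chil3 and Itgam called higher, Cd68 called lower and 4 not called. The quasi-likelihood test called Cd163 and Cd68, and replicates 1 to 3 gave 0 calls. The 6 markers of innate lymphoid cells summed to 133 to 187 CPM and 111 to 224 CPM, with Areg called lower. The 8 hepatocyte markers summed to 2.69 to 10.3 CPM and 5.29 to 60.7 CPM. Of these, Fga and Fgb were called higher and Alb and Cyp2e1 lower, and Alb had at most 89 counts in a WT library and 27 in a KSR23 library. The 5 neutrophil markers in the count tables summed to 8.49 to 16.0 CPM and 3.46 to 13.9 CPM, with Elane called higher and Ngp lower. By the quasi-likelihood test Areg, Fga, Fgb and Ngp were called among these genes, and from replicates 1 to 3 Fga alone. The part of these cells in the differences of the members was not tested.

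**Figure D2:**
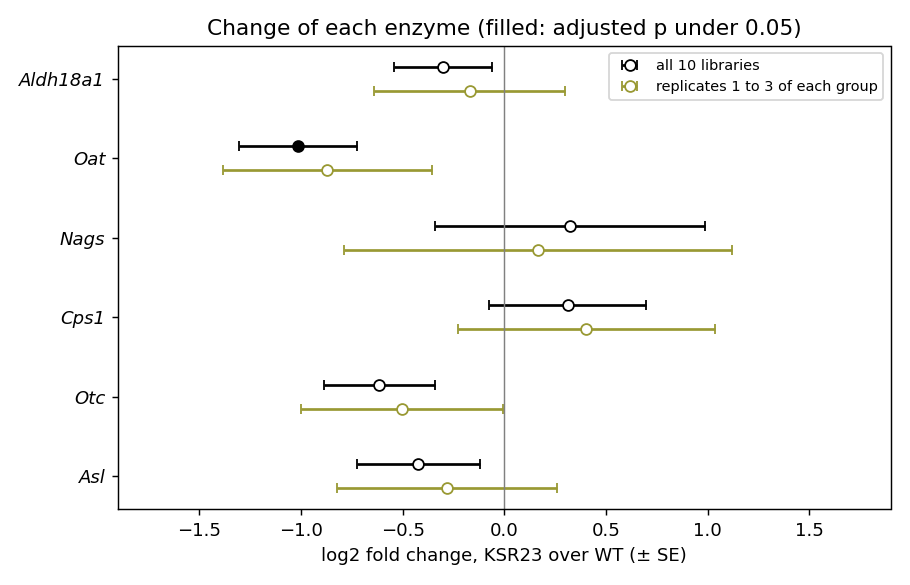
Log2 fold change of KSR23 over WT (x axis, points with SE) for the 6 tested enzymes (y axis), from all 10 libraries in black and from replicates 1 to 3 of each group in olive, with filled points where the adjusted p was under 0.05. From all 10 libraries Oat lies at -1.02 and is the filled point, and from replicates 1 to 3 no point is filled.

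Ratios between enzymes within a library do not depend on how the libraries were scaled. Oat counts per count of Otc were 25.0, 26.5, 24.4, 26.04 and 25.3 in WT replicates 1 to 5. In KSR23 replicates 1 to 5 they were 20.0, 16.0, 21.3, 18.7 and 18.6. The ratio was nearly constant in WT (25.4 ± 0.84) and lower in each KSR23 library (18.9 ± 1.98), KSR23 replicate 3 included. Oat per Cps1 was 6.14 to 12.1 in WT and 2.18 to 5.42 in KSR23, without overlap. Oat per Aldh18a1 was 5.26 to 8.21 in WT and 3.32 to 5.51 in KSR23, and overlapped, since KSR23 replicate 3 lay above WT replicate 2. Asl per Otc was 0.526 to 0.841 in WT and 0.808 to 0.866 in KSR23, and overlapped. Otc per Cps1 was 0.236 to 0.495 in WT and 0.116 to 0.340 in KSR23, and overlapped too. No test was run on the ratios, and those with Oat rest on the same Oat counts as its call. The share of all gene pairs without overlap was not computed.

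**Figure D3:**
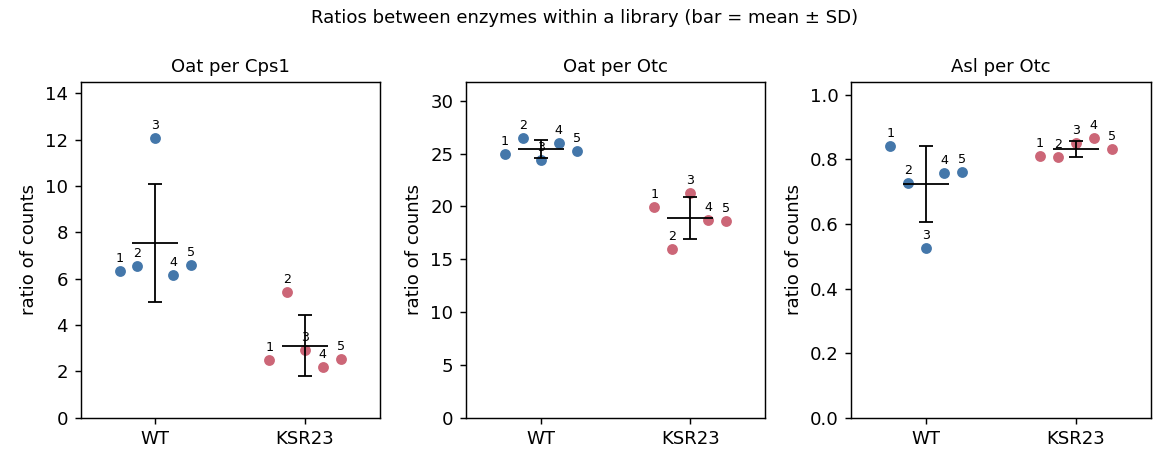
Ratio of the counts of 2 enzymes in each library (y axes, linear, from 0), for Oat per Cps1, Oat per Otc and Asl per Otc in WT and KSR23, with points numbered by replicate and bars for the mean and SD. The KSR23 points lie below the WT points in the first and second panels, and the groups overlap in the third.

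Within a group, several members varied together from library to library. Deviations of log2 CPM from the group means correlated with Pearson r of 0.65 to 0.96 in all 6 pairs of Oat, Otc, Asl and Cps1 (10 libraries), and highest for Oat and Otc. Aldh18a1 correlated with the same 4 genes too (r of 0.45 with Otc, 0.59 with Oat, 0.64 with Asl and 0.73 with Cps1). Nags correlated negatively with each of the other 5 tested members (r of -0.81 to -0.28). These are descriptions over libraries that share scaling and in which replicates 4 and 5 lay between the others. KSR23 replicate 3, the highest KSR23 library for 5 of 6 tested members, also had the highest sum of enterocyte markers in its group (110000 CPM), and KSR23 replicate 2 the lowest (61226 CPM). In WT, replicate 3 was the lowest library for Aldh18a1, Oat, Cps1 and Asl, while its sum of enterocyte markers was the highest of its group (201885 CPM). The part of cell content in these differences was not tested.

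Levels were compared between genes as CPM per kb of summed exons. In WT, Oat was at 2158 ± 275 CPM per kb, Aldh18a1 at 179, Cps1 at 132, Otc at 47.3, Asl at 30.3 and Nags at 8.16. Oat lay above the range of each other member over the 5 libraries. Among neighbours in this order, Aldh18a1 and Cps1 had ranges that overlapped, and so had Otc and Asl. In KSR23 the order was Oat (1067), Cps1 (164), Aldh18a1 (145), Otc (30.9), Asl (22.7) and Nags (10.2). The order of Cps1 and Aldh18a1 in KSR23 turned with coding length (Aldh18a1 248, Cps1 202) and with RefSeq transcript length (168 and 164), and their ranges overlapped. With coding length in place of summed exons, Otc (189 CPM per kb in WT) stood above Cps1 (163). Oat held the highest level in both groups under each of the lengths used.

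The other genes of arginine metabolism were then examined by role. Of 54 genes listed, 52 were tested and 16 were called, 10 higher and 6 lower in KSR23, where 18.5% of all tested genes were called. In replicates 1 to 3 alone 4 were called (Slc6a14, Nos2, Gatm and Smox), where 3.36% of all genes were called. For the likelihood ratio calls by list below, 18.5% is likewise the share over all tested genes. With the Y-linked share in the fit Glul, Prodh, Aldh4a1, Slc7a1, Hnf4a, Hnf4g and Sirt5 were not called (adjusted p of 0.0561 to 0.445), each with the same direction. In that fit Cebpb was called as lower (-1.56, likelihood ratio adjusted p = 0.0303), which was not called without the term (-1.03, adjusted p = 0.107). The median log2 fold change of the 52 tested genes was 0.18. The genes that supply glutamate and proline moved in both directions, with 4 of 11 called. Glul, which makes glutamine from glutamate, rose from 31.6 to 60.5 CPM (log2 fold change 0.94, edgeR likelihood ratio adjusted p = 0.0323). Prodh, the proline oxidase, rose (log2 fold change 1.57, adjusted p = 0.0297, quasi-likelihood adjusted p = 0.0702), and so did Aldh4a1, which takes pyrroline-5-carboxylate to glutamate (1.99, adjusted p = 0.00904). Aldh4a1 shares 28.7% of its stretches with the overlapping gene Gm21969. Prodh2, which oxidises hydroxyproline, fell (-2.83, adjusted p = 0.00115). None of these 4 genes was called from replicates 1 to 3.

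Of the 7 mitochondrial carriers 0 were called by the edgeR likelihood ratio test, which gave 1 an unadjusted p under 0.05, and 0 by the quasi-likelihood test or DESeq2. Slc25a15, which carries ornithine and citrulline across the inner membrane, was 298 ± 40.7 CPM in WT and 282 ± 27.9 CPM in KSR23, a difference of -0.08 on the log2 scale (SE 0.23). Slc25a13, the aspartate and glutamate carrier citrin, was 55.8 ± 1.78 and 52.1 ± 8.64 CPM. Of 9 genes of cationic amino acid transport 3 were called, all higher. Slc3a1, a subunit of the brush border carrier of arginine and cystine, rose from 123 ± 23.8 to 338 ± 127 CPM, or 1.46 on the log2 scale (SE 0.30, adjusted p = 5.64e-05), without overlap. It shares 23.99% of its stretches with Prepl on the other strand. Its partner Slc7a9 was at 595 and 860 CPM (0.53, adjusted p = 0.202). Slc7a1, a carrier of arginine into cells, rose (0.99, adjusted p = 0.0278), but was at 0.55 with the Y-linked share in the fit (adjusted p = 0.445). Slc6a14, a broad amino acid carrier that also takes arginine, had 0 to 8 counts in WT and 66 to 939 in KSR23 (6.03, SE 0.65, adjusted p = 3.05e-15), and was also called in replicates 1 to 3 alone (5.98, adjusted p = 2.96e-05).

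Among 9 genes that use arginine or act on its products 4 were called. The quasi-likelihood test and DESeq2 each called 5, these and Ddah2. Ddah2 was lower in KSR23 (log2 fold change -0.72, edgeR likelihood ratio adjusted p = 0.0534, quasi-likelihood adjusted p = 0.0406, DESeq2 adjusted p = 0.00638). Nos2, the inducible nitric oxide synthase, rose from 0.361 to 24.7 CPM (log2 fold change 6.07, adjusted p = 1.87e-31). The enzymes of creatine synthesis fell. Gatm, which takes the amidino group of arginine, was 58.6 to 130 CPM in WT and 10.8 to 21.1 CPM in KSR23 (log2 fold change -2.39, SE 0.32, adjusted p = 1.72e-10), and was also called in replicates 1 to 3 alone (-2.34, adjusted p = 0.00492). Gamt, which methylates its product, was 1.83 to 34.3 CPM in WT and 0.395 to 4.24 CPM in KSR23, with overlap (-3.57, SE 0.75, adjusted p = 0.000327). From replicates 1 to 3 Gamt was at -3.55 (adjusted p = 0.0539). Agmat, an enzyme of the agmatinase family, fell from 125 ± 39.4 to 57.5 ± 30.7 CPM (-1.13, adjusted p = 0.0228). Pancreatic acinar cells also express Gatm, and the 6 acinar markers summed to 99.04 to 218 CPM in WT and 5.87 to 15.6 CPM in KSR23, with 5 called lower (3 by the quasi-likelihood test and 4 from replicates 1 to 3). Pnlip had at most 3 counts in a library. Their part in the fall of Gatm was not tested.

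Of 11 genes of polyamines 9 were tested and 1 was called. Smox, the spermine oxidase, rose from 12.0 ± 4.72 to 57.5 ± 19.0 CPM, or 2.26 on the log2 scale (SE 0.38, adjusted p = 4.43e-07), without overlap, and was called in replicates 1 to 3 alone (2.21, adjusted p = 0.0342). Odc1, which makes putrescine from ornithine, was 9.0 ± 1.88 and 6.94 ± 1.68 CPM (-0.38, adjusted p = 0.427). Of 7 regulators 4 were called. Hnf4a and Hnf4g, transcription factors of enterocytes, were higher (1.08 and 1.31, adjusted p = 0.00281 and 0.00323). Sirt3 and Sirt5, mitochondrial deacylases known to act on the enzymes of Otc and Cps1, were lower (-1.22 and -1.13, adjusted p = 0.000438 and 0.00344). None of these 4 was called from replicates 1 to 3.

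**Figure D4:**
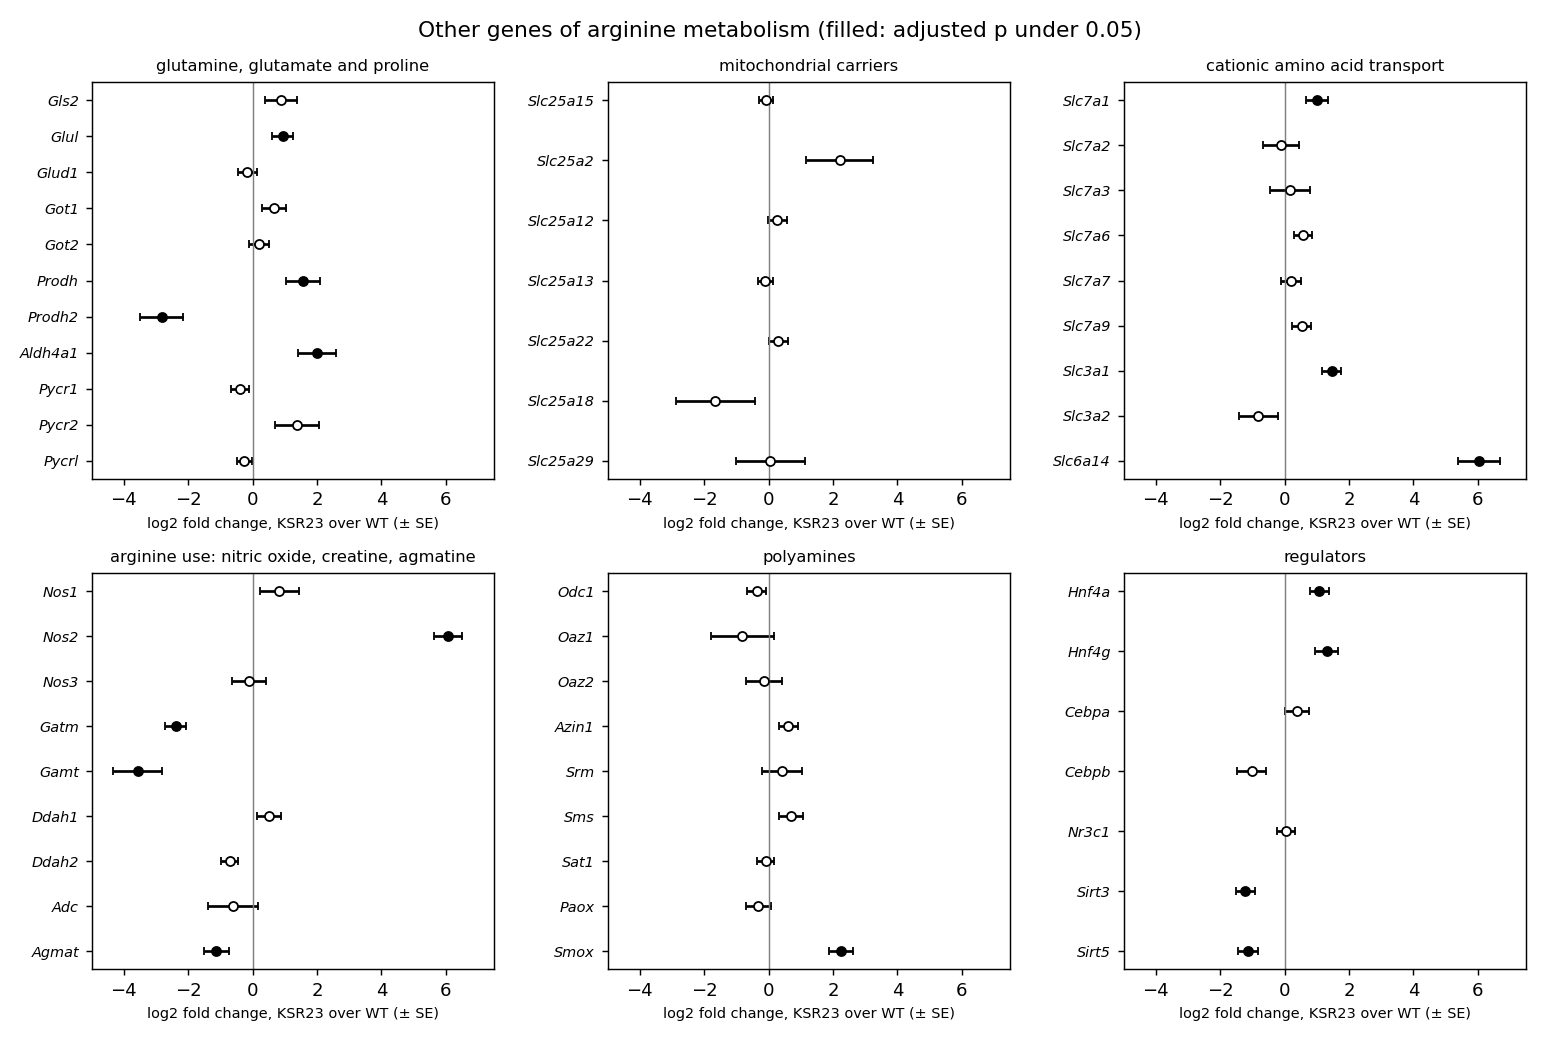
Log2 fold change of KSR23 over WT (x axes, points with SE) for the 52 tested genes of 6 lists of arginine metabolism (y axes, 1 panel per list), with filled points where the adjusted p was under 0.05. The 16 filled points lie on both sides of 0, with Nos2 and Slc6a14 farthest to the right at about 6 and Gamt farthest to the left at -3.57, and no carrier in the second panel is filled.

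For Oat, the called member, the genes with the most similar pattern over the 10 libraries were listed by Pearson r of log2 CPM, among 12888 other genes at a mean of 1 CPM or more. They were Pex11g (r = 0.992) and Rab19 (r = 0.991). Pex11g (log2 fold change -0.96) was called as lower in KSR23, and Rab19 (-0.79) was not called. These correlations describe libraries that include the group difference.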

How the data were processed

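RNA of jejunum was amplified with an oligo-dT-primed low-input kit, and libraries made by tagmentation were read from 1 end over 75 bases. The deposited values were counts. According to the methods and the submitters' processing notes, the authors mapped reads to mm10 with TopHat2 2.1.0 and counted them per gene with HTSeq 0.6.1p1 under strict intersection. The strand setting is not given in the sources used here. The counter's own rows, 27.9% to 35.2% of all counts, were left out. There were no molecular identifiers, so counts cover copies made by PCR, and a floor of 3 counts (0.0492 to 0.118 CPM) covers counting error alone.

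Counts were fitted in edgeR 4.0.16 (R 4.3.3) with TMM factors and a term for group, and the likelihood ratio test was used, as in the study. Benjamini-Hochberg adjustment ran over all 17632 genes, and an adjusted p under 0.05 was called. Intervals are the estimate ± 1.96 SE. Alternatives were the quasi-likelihood F test, DESeq2 1.42.0, other scalings and filters, subsets of libraries, a block for the replicate number and a Y-linked covariate. Positions and lengths come from GENCODE M21 (mm10). The RefSeq transcript length was added after seeing the data. The text names 7 members, genes of 6 pathway and 7 marker lists, and the 2 genes most correlated with each called member. Of the genes on the lists, 2 further members and 1 other gene are not reported here. Members and lists were chosen with earlier results of these data known.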

Additional observations from a re-analysis of the deposited data

How the results depend on the processing

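The call of Oat was lost in the smallest set of libraries. In replicates 1 to 3 alone Oat (-0.87) kept its direction and lost the call by both edgeR tests, and 0 members, 4 other pathway genes (1 by the quasi-likelihood test) and 579 of all genes (140 by the quasi-likelihood test) were called. That fit holds fewer samples, and no other set of 3 per group was run. With the Y-linked share in the fit Oat was at -1.11 and not called, and 0 members, 10 other pathway genes and 1797 of all genes were called, and the cause was not tested. With library totals alone as the scaling Otc was called (-0.74), which made 2 members. With the replicate block Nags turned to -0.13, and the call of Oat held, with 2202 of all genes called. Same-numbered libraries correlated at -0.74, 0.41, -0.69, 0.36 and 0.49 (replicates 1 to 5) in their deviations from the group means. Whether they share more than a number was not tested. Leaving out 1 library at a time gave 1 to 2 members, 13 to 18 other pathway genes and 2370 to 3802 of all genes called. The range was -1.26 to -0.86 for Oat, which was called in each of these fits, -0.79 to -0.49 for Otc, -0.28 to 0.69 for Nags, 0.10 to 0.58 for Cps1, -0.61 to -0.29 for Asl and -0.40 to -0.19 for Aldh18a1. With the Y-linked share in the fit Cps1 was at 0.72 (adjusted p = 0.509) and not called. Without KSR23 replicate 1, Nags was at -0.28, with the sign turned, and without KSR23 replicate 3 Otc was called (-0.79). The quasi-likelihood test, DESeq2, RLE factors and both other filters changed no call among the 6 tested members. Levels per kb in WT moved by more than 1 SD with either other length for Otc and Asl, and with coding length also for Oat (3866), Aldh18a1 (306) and Nags (14.6). Nags had the fewest counts of the tested members, with 171 to 5056 counts per library and a 95% interval of -0.98 to 1.62.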

Other observations

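Other genes of the polyamine list resembled Ass1 in their counts. Amd1 and Amd2, which make the aminopropyl donor of polyamine synthesis, had 0 counts in all 10 libraries. Of their 75-base stretches 72.5% and 79.2% occurred in another gene, for the most part in each other. Oaz1, the ornithine decarboxylase antizyme, was at 0.198 CPM in WT and 0.108 CPM in KSR23, and 17.0% of its stretches occurred in Oaz1-ps. Amd1 and Amd2 cannot be read as silent from the deposited counts. Most stretches of Oaz1 occurred in no other gene, and the cause of its low counts was not tested.

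The 4 markers of smooth muscle summed to 1390 to 3227 CPM in WT and 1495 to 2000 CPM in KSR23, and Acta2 alone was called, as lower, by the likelihood ratio test, but not by the quasi-likelihood test or from replicates 1 to 3.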
